A study of Mus musculus with 16 samples.

Results

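The genes of 9 cathepsins (Ctss, Ctsd, Ctsb, Ctsl, Ctsz, Ctsh, Ctsc, Ctsk and Ctsa) and of their secreted inhibitor cystatin C (Cst3) were followed in mouse spinal cord by RNA sequencing. They were taken by gene symbol, and all 10 were found among the 24411 genes of the deposited tables. Each had a mean above 1 TPM (a transcript level that the authors scaled to gene length and to library size) in every condition, so all 10 were tested. Each mouse gave 1 sample at 1 time, so no course over time was measured.

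Cathepsins are proteases that work mostly inside lysosomes, where they break down proteins taken up by the cell or delivered by autophagy. They are made as inactive precursors, are tagged with mannose-6-phosphate, travel to the lysosome on receptors for that tag, and become active once a propeptide is cut off. Cathepsins B, C, H, K, L, S and Z use a cysteine in the active site, cathepsin D an aspartate and cathepsin A a serine, and cystatin C blocks cysteine cathepsins outside the cell. In the central nervous system cathepsin S is mainly a product of microglia and macrophages, whereas cystatin C is also made in large amounts by astrocytes.

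Female C57BL/6J mice received a lateral compression injury (SCI) with a gap of 0.25 mm at 12 wk of age. Beginning 2 wk later, 7 mice were given atorvastatin daily at 10 mg/kg (SCI + Atorvastatin) and 7 were given only the vehicle, a mixture of DMSO, polyethylene glycol, Tween 80 and saline (SCI + Vehicle). Dosing lasted 4 wk, and at 6 wk post-injury a 5 mm piece of cord around the lesion was taken after perfusion. The Uninjured Control group was 2 mice with neither injury nor treatment, without a sham operation or vehicle, and the labels put their age at 12 wk, so injury, surgery, vehicle and age cannot be told apart against them. The study's text and the labels differ slightly on the day of collection and on the age of these mice.

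Total counts on genes were between 14823292 and 25579826, at which a count of 0 allows up to 0.117 to 0.202 CPM (counts scaled to library size), a limit that covers counting error only. A count was found in 12732 and 12356 genes of the Uninjured Control mice, fewer than in any SCI mouse (16399 to 19338), at total counts inside the SCI range, and the part of this in the comparisons with these mice was not tested. Summed markers of astrocytes (4896 to 11780 TPM) and oligodendrocytes (12970 to 19270 TPM) were high in all 16 mice, as were those of neurons (9608 and 12010 TPM in the controls, 5958 to 9770 TPM in the SCI mice). The Uninjured Control mice also held 6498 and 1369 TPM over 9 liver genes, against at most 11.7 TPM in any SCI mouse. SCI + Vehicle replicate 7 had the lowest sums of microglia and macrophage, fibroblast and endothelium markers of the 14 SCI mice and the highest neuron and oligodendrocyte sums. The treatment comparison of Ctsh and Ctsd and the ratio of Cst3 to the cysteine cathepsins are given with and without it.

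Cathepsin D and cathepsin S carried most of the difference in summed cathepsin TPM between injured and uninjured cord. In whole tissue, more cells of a type and more RNA per cell cannot be told apart. Ctss, the gene of a cysteine protease that also trims the invariant chain of MHC class II, was at 100.3 and 138 TPM in the Uninjured Control mice. In the SCI + Vehicle mice it ran from 1380.4 TPM through a median of 1754 TPM to 1928 TPM, and in the SCI + Atorvastatin mice from 1603 TPM through 1838 TPM to 2257 TPM. In TPM the lowest SCI mouse therefore lay 10.0 times above the higher control. In CPM the controls were at 71.5 and 74.0, and the lowest SCI mouse, SCI + Vehicle replicate 4, at 640.8. Ctsd, the gene of the main aspartic protease of the lysosome, was at 337 and 309 TPM in the Uninjured Control mice. It spanned 2098 to 3402 TPM with a median of 3001 TPM in SCI + Vehicle and 3083 to 4231 TPM with a median of 3264 TPM in SCI + Atorvastatin. For both genes no SCI mouse came near the controls, whose TPM differed from each other by 1.38 times in Ctss and 1.09 times in Ctsd.

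**Figure D1:**
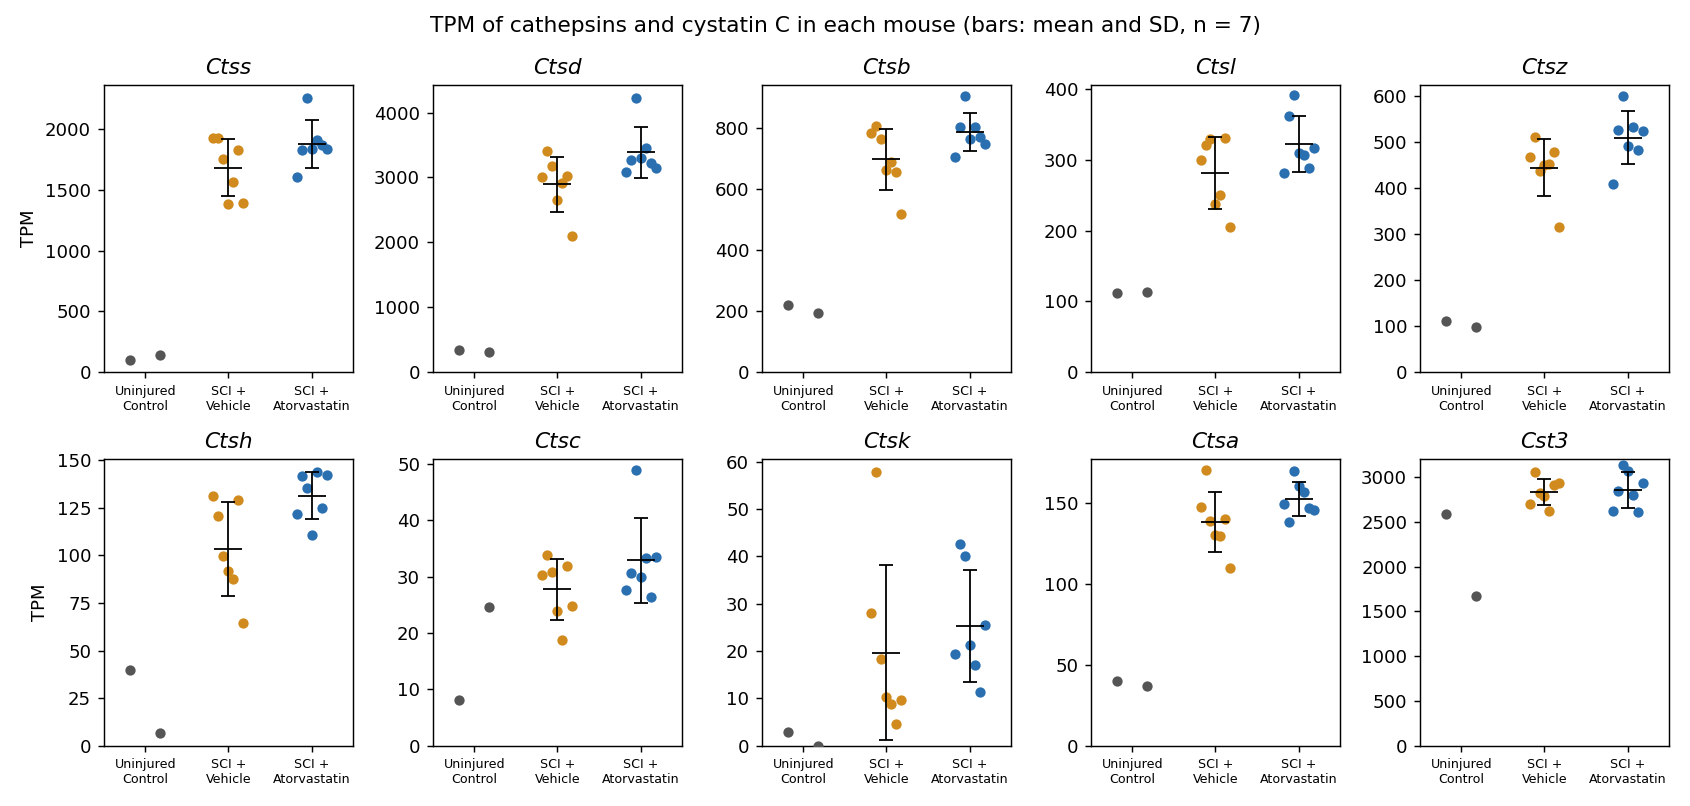
TPM of each gene in each mouse, 1 panel per gene with its own linear axis from 0. Dots are mice (2 Uninjured Control, 7 SCI + Vehicle, 7 SCI + Atorvastatin), and the bars give mean and SD of the SCI groups. In 9 of 10 genes every SCI mouse lies above both controls in TPM, by a wide gap in Ctss and Ctsd and a narrow one in Cst3. Of all genes tested, 26.3% had every SCI + Vehicle mouse above both controls, and 32.3% every SCI + Atorvastatin mouse. A share over both SCI groups together was not taken. The 2 SCI groups overlap in all 10 genes.

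Among the other cysteine cathepsins, Ctsb, Ctsz and Ctsl were likewise higher in each SCI mouse than in either control. Ctsb, encoding a protease with both endopeptidase and carboxypeptidase activity, was at 221 and 194 TPM in Uninjured Control. Its range was 517 to 806 TPM (median 688 TPM) in SCI + Vehicle and 705 to 906 TPM (median 771 TPM) in SCI + Atorvastatin. Ctsz, whose product is a carboxypeptidase, had 110 and 97.4 TPM in the controls, 315 to 509 TPM in SCI + Vehicle and 409 to 598 TPM in SCI + Atorvastatin. Neither gene's SCI range touched its control values. Ctsl, which encodes a lysosomal endopeptidase, had 112 and 114 TPM in the controls, 204 to 331 TPM in SCI + Vehicle and 281 to 392 TPM in SCI + Atorvastatin. The counts of Ctsl in the controls were less alike (2544 and 1800). As single mice were left out, its log2 fold change ran from 0.864 to 1.51 with vehicle and from 1.08 to 1.73 with atorvastatin. Ctsa, whose product is a serine carboxypeptidase that also holds and protects neuraminidase 1 and beta-galactosidase, was at 40.2 and 37.0 TPM in the controls, 110 to 171 TPM in SCI + Vehicle and 138 to 170.0 TPM in SCI + Atorvastatin. Its controls were close in TPM but not in counts (1599 and 939), and with either left out its log2 fold change ran from 1.13 to 2.05 with vehicle and from 1.28 to 2.21 with atorvastatin.

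For Ctsh, Ctsc and Ctsk the 2 Uninjured Control mice differed in TPM as well as in counts. Ctsh, the gene of an aminopeptidase, was at 39.8 TPM (490 counts) in replicate 1 and 6.97 TPM (90 counts) in replicate 2, a difference of 5.70 times. The SCI mice had 64.5 to 131 TPM with vehicle and 111 to 144 TPM with atorvastatin, so both controls still lay below. Ctsc, whose product activates granule serine proteases of leukocytes, went the other way, with 8.17 TPM (162 counts) in replicate 1 and 24.7 TPM (490 counts) in replicate 2. The SCI + Vehicle mice ranged from 18.9 to 33.9 TPM and the SCI + Atorvastatin mice from 26.5 to 48.9 TPM. In TPM 12 of 14 SCI mice were above both controls, which makes Ctsc the one gene whose injured and control TPM overlapped. All SCI + Vehicle mice lay above both controls in 26.3% of all genes tested, and all SCI + Atorvastatin mice in 32.3%. Ctsk, the collagen-degrading cathepsin of osteoclasts, was found in replicate 1 (2.86 TPM, 34 counts) and had no count in replicate 2.

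Ctsk was also the most uneven gene among the injured mice. The coefficient of variation of its TPM reached 94.3% with vehicle and 46.5% with atorvastatin, whereas the other 9 genes stayed between 5.19% and 23.8%. Its range was 4.65 to 57.8 TPM (median 10.2 TPM) with vehicle and 11.5 to 42.7 TPM (median 21.4 TPM) with atorvastatin. The highest mouse of each group was replicate 2, at 57.8 TPM and 42.7 TPM, and these were also the mice with the highest summed level of 7 osteoclast and bone markers, 142 TPM and 82.8 TPM, against 0.93 to 35.9 TPM in the other SCI mice. SCI + Atorvastatin replicate 3 was nearly as high in Ctsk (40.01 TPM, and 4.60 log2 CPM beside 4.57 in replicate 2) with a marker sum of only 22.7 TPM. The summed level was 18.4 and 21.2 TPM in the controls, where 5 of the 7 genes were listed at 0. The same 2 mice had the highest fibroblast sums of their groups (685 TPM and 1141 TPM) and the highest neutrophil sums (782 TPM and 538 TPM). The part of any of these in the Ctsk result was not tested.

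Cst3 was abundant everywhere and differed least. It was at 2586 and 1667 TPM in the Uninjured Control mice, 2626 to 3058 TPM (median 2816 TPM) in SCI + Vehicle and 2611 to 3132 TPM (median 2848 TPM) in SCI + Atorvastatin. In TPM every SCI mouse exceeded both controls, but the lowest did so by only 1.01 times, while the controls differed by 1.55 times. In CPM the groups overlapped. Uninjured Control replicate 1 was at 701 CPM, above SCI + Vehicle replicate 5 (599.5 CPM) and SCI + Atorvastatin replicate 1 (612 CPM), among others. In the fit of counts neither comparison with Uninjured Control passed the test for this gene.

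Counts were compared with edgeR's quasi-likelihood test, and a gene was called when its Benjamini-Hochberg adjusted p over all 16091 genes tested was below 0.05 and its absolute log2 fold change above 0.322, the size of a 25% increase. For SCI + Vehicle vs. Uninjured Control, 7 members were called, all higher, where 19.8% of all genes tested were called higher, 9.55% lower and 29.4% in either direction. Among genes with at least 100 counts in both controls, 11.3% were called higher. Ctsh and Ctsk lie outside that set, Ctsh with 90 counts in replicate 2 and Ctsk with 34 and 0 counts. Ctss was 10.6-fold higher (95% interval 7.96 to 14.2, log2 fold change 3.41, SE 0.19, adjusted p = 1.64e-05) and Ctsd 7.29-fold (5.58 to 9.54, log2 fold change 2.87, SE 0.18, adjusted p = 1.64e-05). By p they were 2nd and 6th among the genes that were higher. Next came Ctsh at 4.42-fold (adjusted p = 0.0156), Ctsz at 3.48-fold (adjusted p = 7.08e-05), Ctsb at 3.07-fold (adjusted p = 0.000127), Ctsa at 2.86-fold (adjusted p = 0.000954) and Ctsl at 2.22-fold (adjusted p = 0.00381). Ctsc (log2 fold change 0.78, SE 0.38, adjusted p = 0.147), Ctsk (3.93, SE 1.44, adjusted p = 0.0633) and Cst3 (0.25, SE 0.15, adjusted p = 0.243) were not called.

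SCI + Atorvastatin vs. Uninjured Control used the same 2 controls, so its values are given beside the former rather than as a second line of evidence. Here 8 of the 10 genes were called, all higher, against 24.9% of all genes tested called higher, 14% lower and 38.9% in either direction. Among genes with at least 100 counts in both controls, a set without Ctsh and Ctsk, 15.8% were called higher. Ctss was 12.1-fold higher (log2 fold change 3.60, SE 0.18, adjusted p = 3.1e-06) and Ctsd 8.72-fold (3.12, SE 0.18, adjusted p = 4.56e-06). The called folds of the others were 5.71 for Ctsh, 4.04 for Ctsz, 3.51 for Ctsb, 3.19 for Ctsa and 2.59 for Ctsl, with edgeR adjusted p of 0.00408 or less. Ctsk was the eighth (log2 fold change 4.21, SE 1.20, adjusted p = 0.0184), with a wide 95% interval of 2.92-fold to 118-fold. Ctsc (1.03, SE 0.41, adjusted p = 0.0711) and Cst3 (0.28, SE 0.16, adjusted p = 0.186) again did not pass. The median log2 fold change of the 10 genes was 1.71 and 1.91 in the vehicle and atorvastatin comparisons, where the median of all genes tested was 0.17 and 0.21.

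**Figure D2:**
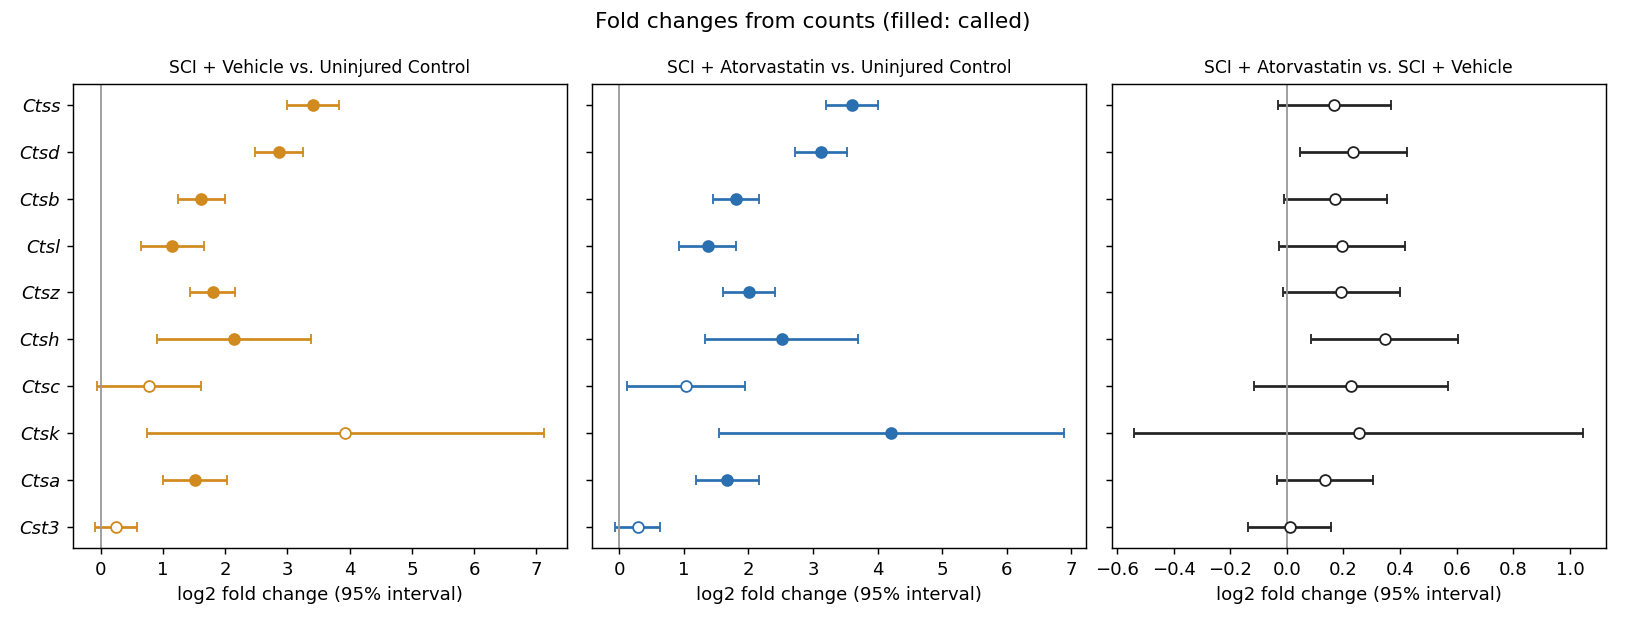
Log2 fold change of each gene (points) with its 95% interval (bars) in the 3 comparisons, from edgeR's fit of counts, where filled points were called and the right panel has a narrower axis. Against Uninjured Control Ctss and Ctsd combine large fold changes with short bars, Ctsk and Ctsh have long bars, and no point is filled between the treatments.

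These calls depended on how the spread of 2 controls was treated. When each group was given its own quality weight (limma voom), 2 of 10 genes were called in each of the comparisons with Uninjured Control, namely Ctss and Ctsd, with 133 and 146 genes called in the whole table. With 1 control left out, the other is assumed to vary like the SCI mice, and calls in the whole table rose (from 4726 to 7673 without replicate 1 and to 7806 without replicate 2 in the vehicle comparison), so only fold changes are given for these fits. The log2 fold change of Cst3 was 0.595 with vehicle and 0.63 with atorvastatin without Uninjured Control replicate 1, and -0.03 and -0.0031 without replicate 2. That of Ctsc was 1.68 and 1.92 without replicate 2, and Ctsh ranged from 1.36 to 3.96 and from 1.73 to 4.33 as single mice were left out. Ctsk had log2 fold changes of 2.93 and 3.20 against replicate 1 alone, and is given no fold against replicate 2 alone, which had no count. DESeq2 also called Ctsk with vehicle (adjusted p = 0.00185) and Ctsc with atorvastatin (adjusted p = 0.0364), and limma on log2(TPM + 1) called Cst3 with atorvastatin (log2 fold change 0.459 on that scale, adjusted p = 0.0342). Without SCI + Vehicle replicate 7 the number of called genes stayed at 7.

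Levels scaled to length allowed the 10 genes to be ranked within a mouse. In uninjured cord Cst3 led with a mean of 2126 TPM, followed by Ctsd (323 TPM), Ctsb (207 TPM), Ctss (119 TPM), Ctsl (113 TPM), Ctsz (104 TPM), Ctsa (38.6 TPM), Ctsh (23.4 TPM), Ctsc (16.4 TPM) and Ctsk (1.43 TPM). The ranges of Ctss and Ctsl, of Ctsa and Ctsh, and of Ctsh and Ctsc overlapped there. In both SCI groups the order was Ctsd, Cst3, Ctss, Ctsb, Ctsz, Ctsl, Ctsa, Ctsh, Ctsc and Ctsk, so Ctsd stood before Cst3 and Ctss before Ctsb. Ctsd exceeded Cst3 in 7 of 7 SCI + Atorvastatin mice and in 5 of 7 SCI + Vehicle mice, though the ranges of the neighbours overlapped in each group. Ctsa and Ctsh, and Ctsc and Ctsk, also overlapped in both SCI groups, as did Ctsz and Ctsl in SCI + Vehicle.

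The make-up of the cathepsin transcripts differed accordingly. The 9 cathepsins summed to 971.7 and 921 TPM in the controls, to 6287 ± 873 TPM (SD, n = 7) in SCI + Vehicle and to 7225 ± 745 TPM (SD, n = 7) in SCI + Atorvastatin. Ctss made up 10.32% and 14.99% of that sum in the controls and 24.5% to 29.4% in the SCI mice. Ctsd took 34.7% and 33.6% in the controls and 44.0% to 48.2% after injury, whereas Ctsb took 22.7% and 21.0% and then 9.91% to 11.8%. Ctsl was likewise a smaller part of the sum in each SCI mouse (4.09% to 5.06%) than in the controls (11.5% and 12.3%), although its own TPM was higher in all of them. The median share of Ctss was 26.2% with vehicle and 25.97% with atorvastatin, and the ranges of the treatments overlapped.

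The level of Cst3 relative to the cysteine cathepsins was lower in every SCI mouse than in either control. Cst3 stood at 4.35 and 2.90 times the summed TPM of the 7 cysteine cathepsins in the controls. The ratio was 0.886 ± 0.141 (SD, n = 7) in SCI + Vehicle, from 0.736 to 1.16, and 0.779 ± 0.054 (SD, n = 7) in SCI + Atorvastatin, from 0.716 to 0.860. SCI + Vehicle replicate 7 gave the value of 1.16 and was the only SCI mouse above 1. Without it, a choice made after seeing the data, the SCI + Vehicle ratio was 0.840 ± 0.079 (SD, n = 6) with a highest value of 0.977, and the cathepsin sum was 6545 ± 595 TPM (SD, n = 6). This is a ratio of transcripts, not of protein or of protease activity, and it is given as a description without a test. Together the 10 genes held 0.356% and 0.259% of all TPM in the controls, 0.912% ± 0.090 (SD, n = 7) in SCI + Vehicle and 1.01% ± 0.089 (SD, n = 7) in SCI + Atorvastatin.

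**Figure D3:**
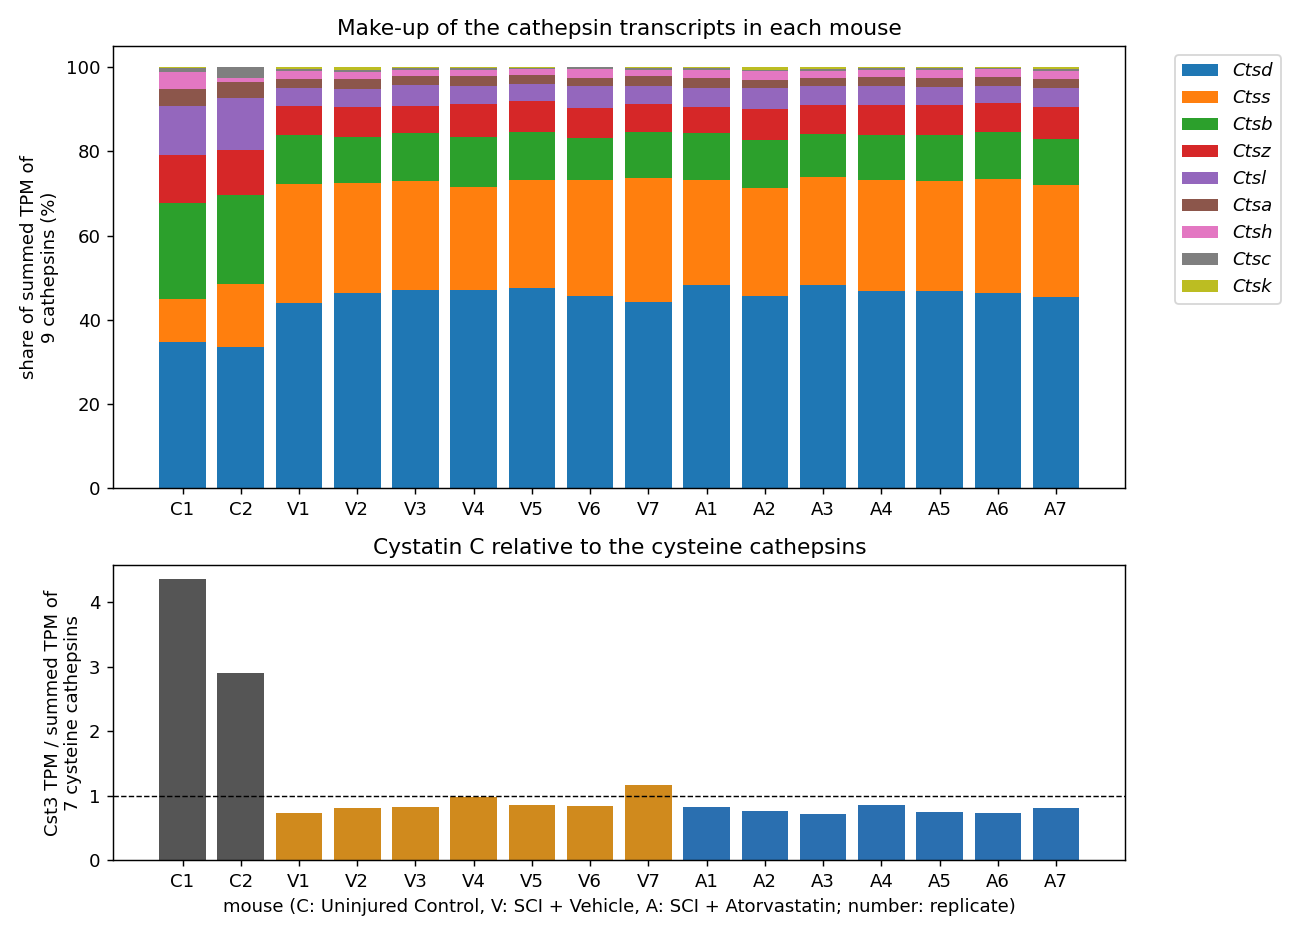
Upper panel, share of the summed TPM of the 9 cathepsins held by each gene (%), 1 stacked bar per mouse. Lower panel, Cst3 TPM divided by the summed TPM of the 7 cysteine cathepsins, with a dashed line at 1. The controls (C1, C2) show smaller Ctsd and Ctss segments and ratios of 4.35 and 2.90, and 13 of the 14 SCI mice are under the line.

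Whether delayed atorvastatin altered these genes in injured cord was asked by comparing the 2 SCI groups, with the study's limit of an unadjusted p below 0.001 and the same fold limit. None of the 10 genes was called by edgeR, where 0.106% of all genes tested were called (0.087% higher, 0.0186% lower), and DESeq2 called 0 as well. An unadjusted p below 0.05 was reached by 2 of 10 genes, Ctsh and Ctsd, both higher, where it was reached by 7.03% of all genes tested and by 4.02% in that direction, and an adjusted p below 0.05 by 0%. Ctsh was 1.27-fold higher with atorvastatin (95% interval 1.06 to 1.52, edgeR adjusted p = 0.68). All 7 SCI + Atorvastatin mice were above the SCI + Vehicle median of 99.5 TPM and 4 were above the highest vehicle mouse, but the groups overlapped. Ctsd was 1.18-fold higher (1.03 to 1.34, edgeR adjusted p = 0.68), with all 7 treated mice above the vehicle median and 2 above its highest mouse. Without SCI + Vehicle replicate 7 the log2 fold change went from 0.34 to 0.26 in Ctsh (edgeR adjusted p = 0.929) and from 0.23 to 0.18 in Ctsd (adjusted p = 0.931).

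The other genes gave intervals that bound how large a treatment difference could have gone unseen. The 95% intervals of the fold were 0.977 to 1.29 for Ctss, 0.992 to 1.28 for Ctsb, 0.99 to 1.32 for Ctsz, 0.982 to 1.34 for Ctsl, 0.976 to 1.23 for Ctsa and 0.91 to 1.12 for Cst3. Ctsc (0.923 to 1.48) and Ctsk (0.688 to 2.06) were less well bounded. All 10 log2 fold changes were above 0, from 0.01 in Cst3 to 0.34 in Ctsh with a median of 0.19, while 48.7% of all genes tested were above 0, and that of Cst3 turned negative when any of 5 single mice was left out. The 10 genes moved together from mouse to mouse, so their signs are not separate observations. Over the same groups, 15 of 15 microglia and macrophage markers had log2 fold changes above 0 (0.0047 to 0.23, median 0.14, none called) and 9 of 9 neuron markers below 0 (-0.33 to -0.11, median -0.16, none called). The 6 fibroblast markers had a median of 0.94 (0.49 to 1.36), with none called but all 6 at an unadjusted p below 0.05, as were 2 of the 15 and 1 of the 9. The part of any of these in the cathepsin values was not tested.

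Cell markers were measured beside the cathepsins. Against Uninjured Control, 19.8% of all genes tested were called higher and 9.55% lower with vehicle. With atorvastatin these shares were 24.9% and 14%. The 15 microglia and macrophage markers, none of them a cathepsin or Cst3, summed to 348.2 and 470.7 TPM in the controls, 3278 to 4674 TPM in SCI + Vehicle and 4108 to 5755 TPM in SCI + Atorvastatin. Of these 15, 12 were called higher with vehicle and 13 with atorvastatin against Uninjured Control, and 2 (Cd68 and Ptprc) were listed at 0 TPM in both controls. Their median log2 fold changes were 3.17 and 3.31, beside 3.41 and 3.60 for Ctss and 2.87 and 3.12 for Ctsd, and their part in the cathepsin values was not tested. Astrocyte markers, of interest for Cst3, were called higher in 3 of 7 in both comparisons and lower in 0 and 2 of 7 (median log2 fold change -0.20 and -0.21). They summed to 4896 and 6067 TPM in the controls, 9358 to 11670 TPM in SCI + Vehicle and 10310 to 11780 TPM in SCI + Atorvastatin. Gfap alone had means of 1712, 6640 and 7010 TPM in these groups. Neuron markers were called lower in 5 of 9 with vehicle and 7 of 9 with atorvastatin (median log2 fold change -0.64 and -0.77) and higher in 0. Of 6 fibroblast markers 0 were called with vehicle and 5, all higher, with atorvastatin (median 1.34 and 2.55), and they summed to 122 and 138 TPM in the controls, 63.3 to 685 TPM in SCI + Vehicle and 449 to 1141 TPM in SCI + Atorvastatin. Summed T and NK cell markers reached at most 26.9 TPM and were at 0 in both controls, and of the 3 tested 0 and 3 were called higher. The 9 liver genes were called lower in both comparisons. The part of these lists in the cathepsin and Cst3 values was not tested.

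Mouse-to-mouse variation within the injured groups was then set against the mean log2 CPM of the 15 microglia and macrophage markers, with the treatment group in the model. An association at an adjusted p below 0.05 was found in 4 of 10 genes, where 0.143% of all genes tested had one. Ctsc had the steepest slope of these, 1.56 log2 units per unit of marker level (SE 0.28, edgeR adjusted p = 0.0211), followed by Ctsl (1.02, SE 0.20, adjusted p = 0.0323), Ctss (0.945, SE 0.16, adjusted p = 0.0147) and Ctsd (0.898, SE 0.15, adjusted p = 0.0117). A slope near 1 means that the gene and the markers differed between mice by the same factor. The other 6 genes had positive slopes that did not pass, among them Ctsz (0.90, edgeR adjusted p = 0.0685), Ctsb (0.747, adjusted p = 0.0948), Ctsk (2.70, SE 0.93, adjusted p = 0.301) and Cst3, which had the lowest slope (0.38, SE 0.17, adjusted p = 0.463). The association leaned on few mice, since without SCI + Atorvastatin replicate 1, which had the lowest marker level of its group, no gene passed (edgeR adjusted p from 0.0762 to 0.115 in the 4), and without replicate 6 of that group 2 did. Single calls were lost without SCI + Atorvastatin replicate 3 (Ctsd, adjusted p = 0.0511, and Ctsc, 0.12, by edgeR), without replicate 6 of that group (Ctsc and Ctsl), and without SCI + Vehicle replicate 4 (Ctss, 0.0533, and Ctsl). Ctsl also did not pass without SCI + Atorvastatin replicate 4 or SCI + Vehicle replicate 2, 3, 5 or 6. With Csf1r alone in place of the list 0 genes passed. Genes and markers come from the same libraries, and SCI + Atorvastatin replicate 3 was highest in marker level (7.05 log2 CPM) and in the log2 CPM of 8 of the 10 genes.

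**Figure D4:**
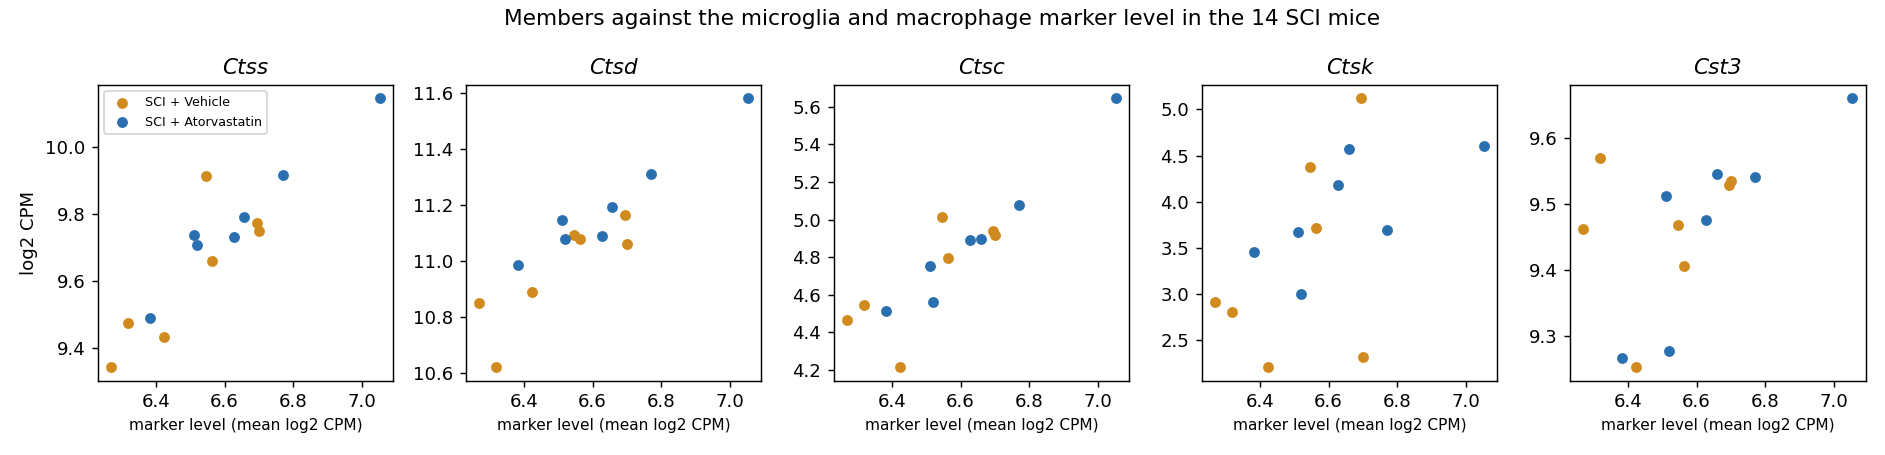
Log2 CPM of 5 genes against the mean log2 CPM of 15 microglia and macrophage markers, 1 dot per SCI mouse (7 SCI + Vehicle, 7 SCI + Atorvastatin), with separate linear axes. Ctss, Ctsd and Ctsc lie along a rising band that ends in SCI + Atorvastatin replicate 3 at the upper right, Ctsk is scattered, and Cst3 spans the smallest vertical range.

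The genes closest in pattern were sought among 12825 genes with a mean of at least 100 counts, by Pearson's r of log2 CPM over the 14 SCI mice after group means were removed. Ctss was most like B2m, the light chain of MHC class I (r = 0.978), the microglial receptor gene Fcrls (0.939) and Ptprc, the leukocyte phosphatase CD45 (0.934). Ctsd was most like Itgb2, an integrin chain of leukocytes (r = 0.929), its fellow member Ctsb (0.929) and Mpeg1, a macrophage perforin (0.925). Ctsk had another set, Irak3 (r = 0.906), Snap23 (0.903) and Vps26a (0.899). Cst3 was most like the Fc receptor gene Fcgr3 (r = 0.92), the ribosomal protein gene Rps19 (0.907) and C330021F23Rik (0.906). Among the members themselves all 45 pairs had a positive r, from 0.292 between Ctsh and Cst3 to 0.929 between Ctsd and Ctsb. Each r compares genes measured in the same 14 libraries, which differed in depth and marker levels, and carries no test.

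Promoter windows of GRCm38.p6 (RefSeq, 250 bases before to 50 after the transcript start) were used for 8 of the 10 genes, all but Ctsb and Ctsh. They were searched on both strands for the E-box CACGTG, which holds the core of the site bound by TFEB, a regulator of lysosomal genes, for GAGGAAG, a core bound by the myeloid factor PU.1, and for TGACTCA, an AP-1 site. The E-box was in 3 of 8 windows (Ctsa, Ctsd and Ctsl), against 7.15% of all 32851 windows. GAGGAAG was in 3 of 8 (Ctss, Ctsc and Ctsk), against 13.6%, and TGACTCA in 0 of 8, against 5.2%. With 8 windows these counts are a description only, and a match does not show binding. Stretches upstream of the start are printed 5′ to 3′ on the gene's strand with the E-box in capitals, since the 3 genes that hold it (an aspartic, a cysteine and a serine enzyme) share no catalytic class.
Ctsd, chr7:142388027-142388077, minus strand: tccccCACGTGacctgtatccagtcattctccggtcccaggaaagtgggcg
Ctsd, chr7:142387880-142387965, minus strand: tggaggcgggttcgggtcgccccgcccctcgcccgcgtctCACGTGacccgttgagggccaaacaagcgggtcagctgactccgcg
Ctsa, chr2:164833721-164833772, plus strand: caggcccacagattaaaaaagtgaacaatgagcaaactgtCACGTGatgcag
Ctsl, chr13:64370711-64370770, minus strand: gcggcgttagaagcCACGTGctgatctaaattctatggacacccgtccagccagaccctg
Counted from 0 at the start, the printed motifs began at -245 and -98 in Ctsd, -12 in Ctsa and -236 in Ctsl, and Ctsa held another at 5, which is not printed. The starts used for Ctsa and Ctsl lie inside the span annotated for the gene. All 3 genes were called higher in both comparisons with Uninjured Control, as were Ctss and Ctsz, whose windows held no E-box. Of all 10 members 7 and 8 were called higher in the vehicle and atorvastatin comparisons, against 19.8% and 24.9% of all genes tested.

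The genes lie on several chromosomes (GRCm38.p6), with Ctsk (chr3:95499210-95509387) and Ctss (chr3:95526786-95556405) close to each other on the plus strand. Ctss varied by 10.3% to 14.1% (coefficient of variation) within the SCI groups and Ctsk by 46.5% to 94.3%. Ctsd is at chr7:142375910-142387827 and Cst3 at chr2:148871722-148875512, both on the minus strand. Ctsb overlaps Fdft1, Ctsz overlaps Nelfcd, and Ctsa overlaps Neurl2 and Pltp, each on the opposite strand. The libraries were stranded, but whether counting used the strand is not stated, so reads of these 3 genes and their neighbours may not have been told apart.

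Less common cathepsins were mostly low. Of 14 further cathepsin genes 4 were tested and 1, Ctso, was called higher in each comparison with Uninjured Control (log2 fold change 0.68, edgeR adjusted p = 0.034, with vehicle, and 0.87, adjusted p = 0.0129, with atorvastatin). Its level was 13.5 and 14.96 TPM in the controls, 28.9 ± 3.9 TPM (SD, n = 7) with vehicle and 31.6 ± 5.3 TPM (SD, n = 7) with atorvastatin. Ctsf, the most abundant of the 14, was at 66.0 ± 5.5 TPM and 59.7 ± 7.5 TPM (SD, n = 7) in these groups and at 18.8 and 71.5 TPM in the controls, and was not called. Ctse (at most 12.3 TPM) and the neutrophil granule gene Ctsg (at most 5.3 TPM) were not called either.

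Of 19 other cathepsin inhibitors 5 were tested. Cst7, the gene of cystatin F, which acts on cathepsins inside immune cells, had no count in either control and 320 to 754 counts in the SCI mice. It was called higher in both comparisons and stood at 71.6 ± 11.8 TPM and 84.1 ± 16.7 TPM (SD, n = 7). Ctla2b, which resembles a cathepsin propeptide, also had no control counts, had 43 to 177 counts in the SCI mice and was called higher in both. No fold is given for these genes, since the controls could differ widely where 1 of them had a count of 0 (Glb1, from the list of sorting and partner genes, had 0 counts in one and 619 in the other). Serpinb6a, the most abundant of this list, was called with atorvastatin only (log2 fold change 0.575, edgeR adjusted p = 0.0197, and 0.387, adjusted p = 0.167, with vehicle), and the difference between treatments was not called (0.17, edgeR adjusted p = 0.792). Cstb, the cytosolic cystatin B, was at 14 and 559 counts in the controls and was not called, as was Ctla2a. The list had a median log2 fold change of 0.387 and 0.575.

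A list of cathepsin sorting, processing and partner genes also held the regulators Tfeb, Tfe3 and Mitf and the peptidases Tpp1 and Dpp7. Its genes had a lower median log2 fold change than the members in both comparisons with Uninjured Control. All 16 were tested, and 4 were called higher with vehicle (Psap, Lgmn, Tpp1 and Igf2r) and 6 with atorvastatin (these and Gnptab and Scpep1), where 19.8% and 24.9% of all genes tested were called higher, with median log2 fold changes of 0.31 and 0.38. Lgmn, the legumain protease that cuts cathepsin precursors, was at 133 and 164 TPM in the controls and at 394 ± 29 TPM and 411 ± 23 TPM (SD, n = 7) in SCI + Vehicle and SCI + Atorvastatin, a log2 fold change of 1.01 and 1.07 (edgeR adjusted p = 0.000181 and 7.74e-05). Psap, the precursor of the saposins, was at 660.2 and 780 TPM in the controls and had log2 fold changes of 0.61 and 0.69 (edgeR adjusted p = 0.0012 and 0.000204). The receptors of the sorting tag divided, with Igf2r called (1.15 and 1.46, edgeR adjusted p = 0.000519 and 1.94e-05) and M6pr not (-0.10 and -0.06, adjusted p = 0.743 and 0.853). Sort1, a sorting receptor that does not need the tag, was not called (0.03 in both). Between treatments 0 of the 16 were called by edgeR, and 1, Igf2r, had an unadjusted p below 0.05 (0.28, edgeR adjusted p = 0.68).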

How the data were processed

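RNA libraries were made with a stranded total RNA kit. The authors checked reads with FastQC 0.12.1, trimmed them with Trimmomatic 0.38, aligned them with STAR 2.5.4b to mm10 and quantified genes with RSEM 1.3.1 (versions as in the submitters' processing notes). They deposited whole-number counts, and the step that made these is not given in the sources used here. The authors also deposited TPM, scaled to gene length and library size. Grouping followed the labels.

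The 16091 genes whose mean TPM passed 1 in 1 or more conditions were tested on counts with edgeR 4.0.16 in R 4.3.3. Settings were TMM, the quasi-likelihood test, 2 groups per fit and Benjamini-Hochberg adjustment. A prior check used simulated data with 1 spread for all genes and groups. It does not cover controls that differ from each other as these 2 did. Alternatives used DESeq2 1.42.0 and limma 3.58.1. Levels are TPM. The ratio of CPM to TPM varied between mice by 1.20 times in Cst3 to 2.08 times in Ctsk, so folds from counts and from TPM can differ. In Ctss and Ctsd it was higher in both Uninjured Control mice than in any SCI mouse, so their distance from the controls was larger in TPM than in CPM. Members and lists were chosen with earlier results of these data known. For the lists of other cathepsins, of inhibitors, and of sorting and partner genes, the text names every called gene and the 4 most abundant. Cell marker lists are given mainly as sums and counts. Calls against Uninjured Control in the oligodendrocyte, endothelium, neutrophil and bone lists are not given. Figures used matplotlib 3.10.9.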

Additional observations from a re-analysis of the deposited data

Results flagged for a closer look

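In 3 of 22 sets of 7 values tested (TPM of each gene and the ratio of Cst3 to the cysteine cathepsins, in each SCI group), 1 mouse lay further from the rest than Dixon's limit for 7 values, and chance passes this limit in about 1 of 20 sets. SCI + Atorvastatin replicate 3 was high in Ctsd, at 4230.58 TPM where the next mouse had 3452 TPM (gap 0.679 of the range), and in Ctsc, at 48.93 TPM where the next had 33.5 TPM (0.687). It was also the mouse with the highest microglia and macrophage marker level, 7.05 log2 CPM. SCI + Vehicle replicate 7 was low in Ctsz, at 314.82 TPM where the next mouse had 437 TPM (0.627). Its summed marker TPM was the lowest of the SCI mice (3278 TPM). By marker level SCI + Vehicle replicate 4 was lowest (6.27 log2 CPM), with replicate 7 at 6.32 log2 CPM. Without SCI + Atorvastatin replicate 3 the log2 fold change between treatments was 0.16 in Ctsd and 0.07 in Ctsc, in place of 0.23 and 0.23. What part these marker levels had in the values was not tested.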

How the results depend on the processing

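Only 2 controls, which differed from each other, limit every comparison with uninjured cord. Replicates came from separate mice. With 1 control left out, the other is assumed to vary like the SCI mice. Means of SCI + Vehicle without replicate 7 were added after seeing the data and moved by less than 1 SD.

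Against Uninjured Control, the count of called members was 7 with vehicle and 8 with atorvastatin. It was 7 to 8 and 8 to 10 under DESeq2, its size factors, other TPM filters, 1 fit of all groups and limma on TPM. No fold limit and the replicate block (8 and 8) stayed in these ranges. Counts over all fits with 1 mouse left out are not given, since some of these fits had 1 control. Voom with group quality weights gave 2 and 2. Between treatments 0 were called except 1 (Ctsh) at an unadjusted p below 0.05 with the fold limit, and 0 to 0 with 1 mouse left out. The log2 fold change of Cst3 reversed with a mouse left out, from -0.0303 to 0.595 with vehicle, -0.0031 to 0.63 with atorvastatin and -0.0225 to 0.0427 between treatments. Members associated with the marker level numbered 4, 0 with Csf1r alone, 0 with the replicate block and 0 to 5 with 1 mouse left out. Causes were not tested.

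In the whole table, 4726 genes were called with vehicle and 6260 with atorvastatin. These became 2398 and 3710 with TPM above 1 in every condition (fewer genes tested), and 133 and 146 with voom weights. Between treatments 17 became 37 (DESeq2), 1 (1 fit of all groups), 8 (voom weights), 8 (replicate block), 669 (unadjusted p below 0.05), 0 (adjusted p) and 5 to 32 with 1 mouse left out. The 23 genes associated with the marker level became 35 without a TPM filter, 0 with Csf1r alone, 0 with the block and 0 to 91 with 1 mouse left out.

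The labels do not say what the replicate numbers mark, and no pairing by number was seen. With 7 pairs, a small effect shared by same-numbered mice could have gone unseen. Same-numbered mice of the SCI groups had an r of deviations from -0.236 to 0.174, 1 of 7 pairs was above 0.1, and 0 of 14 mice correlated best with their own number. DESeq2 size factors moved the median log2 fold change of all genes by at most 0.03.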
